A study of Homo sapiens with 6 samples.

Results

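Box H/ACA and Cajal body RNAs were followed in small RNA libraries of BEAS-2B, an established immortalised line of human bronchial epithelial cells. They were taken as the entries of class snoRNA whose description names SNORA, SCARNA or Cajal, which gave 87 of the 4212 entries in the tables. Of these 87 families, 69 are SNORA and 18 are SCARNA, and 76 had at least 1 read in all 6 libraries. The control group is 3 libraries of cells given the empty plasmid pcDNA3.1, and the PRMT1 group is 3 libraries of cells given pcDNA-PRMT1, which makes the cells over-express PRMT1. Both lasted 48 h. Nothing in the labels says that libraries of a group came from separate cultures, so a p-value here speaks only of how much these libraries scatter, and that scatter may be technical. PRMT1, a protein arginine methyltransferase, is named by no entry of the tables, so its level was not analysed here.

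H/ACA RNAs fold into a pair of hairpins joined by a hinge that carries box H, and end in a tail that carries box ACA. With dyskerin and its partner proteins they guide the change of uridine to pseudouridine, in ribosomal RNA in the nucleolus for most SNORA members. The small Cajal body RNAs, or SCARNA, stay in the Cajal body and guide pseudouridylation or ribose methylation of the spliceosomal small nuclear RNAs. Most vertebrate members are cut out of introns of host genes and have no promoter of their own. Arginine methyltransferases of the PRMT1 kind are known to modify RNA-binding proteins rich in glycine and arginine.

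Each entry is an Rfam family, so its count sums all gene copies that the submitters' counting put there. By name, 84 of the 87 families were matched to 152 genes of GENCODE 29, which is on build GRCh38, whereas the processing notes name GRCh37.p13. A locus listed under several gene IDs was taken as 1 gene. All positions below are GRCh38, and sequences were taken by gene name, not by position in the submitters' build. A lone gene stood behind 47 families, and 37 had at least 2, with SNORA70 the most at 9. Of the 152 genes, 141 lay inside a longer gene on the same strand, and 14 families had a ribosomal protein gene as host. Host genes with an SNHG name were found for 14 families. Gene lengths ran from 121 to 420 bases with a median of 134.

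The sequence hallmarks of the class can be read in SNORA73, the family of highest mean level, and in SNORA66, which ranked 6. SNORA71A, of the family that ranked 4, is not printed, and its last ACA starts at base 132 of 134. The 3 sequences that follow show box H (the ANANNA nearest the centre, within the middle 40% of the gene) and box ACA (the last ACA within the final 10 bases) in capitals, 5′ to 3′.
SNORA73A: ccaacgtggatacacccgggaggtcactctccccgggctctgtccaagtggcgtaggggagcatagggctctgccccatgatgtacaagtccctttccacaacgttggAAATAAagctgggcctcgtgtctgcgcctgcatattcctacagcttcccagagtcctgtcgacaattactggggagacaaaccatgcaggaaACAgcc
SNORA73B: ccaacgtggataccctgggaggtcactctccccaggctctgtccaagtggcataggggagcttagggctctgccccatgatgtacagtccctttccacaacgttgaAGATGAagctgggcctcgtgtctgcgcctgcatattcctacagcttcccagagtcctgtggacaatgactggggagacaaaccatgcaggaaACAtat
SNORA66: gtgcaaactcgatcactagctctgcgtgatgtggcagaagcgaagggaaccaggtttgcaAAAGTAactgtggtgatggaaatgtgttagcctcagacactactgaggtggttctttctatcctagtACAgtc
SNORA73A (chr1:28507366-28507571, plus strand) and SNORA73B (chr1:28508559-28508762, plus strand) lie in introns of RCC1, and both also lie inside SNHG3 on the same strand. They share 192 of 206 aligned positions, an identity of 93.2%. They are counted as 1 family, and reads of the copies cannot be told apart in its count. SNORA66 (chr1:92840719-92840851, plus strand) lies in an intron of RPL5, a ribosomal protein gene. On the RNA strand, ACA exactly 3 bases before the 3′ end was found in 102 of 133 SNORA genes (76.7%) and in 12 of 19 SCARNA genes (63.2%). Among 275 genes of SNORD, the box C/D class, 4 (1.5%) had it there. The looser ANANNA was found in the middle 40% of 132 SNORA genes (99.2%), of 17 SCARNA genes (89.5%) and also of 163 SNORD genes (59.3%).

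Library depth was even, at 23.95 M to 25.79 M counts, of which 14.44 M to 19.24 M were in entries that name a feature. Levels are given per 1000000 of those named counts (CPM) after TMM scaling. A count of 3, the limit that a count of 0 allows, stood at 0.156 to 0.208 CPM before that scaling. These limits and intervals cover counting error only. Epithelial miRNA markers had reads in all 6 libraries, 7 of 7, with a summed level of 6680 to 8960 CPM in the control group and 6020 to 7910 CPM in PRMT1 libraries, but miR-200c, miR-141, miR-205 and miR-203a stood at no more than 53.4 CPM. The endothelial marker miR-126 stood at 1480 to 1800 CPM in the control group and 1210 to 2090 CPM in PRMT1 libraries. Summed markers of neural cells stood at 195 to 256 and 177 to 264 CPM, of fibroblasts and smooth muscle at 37.4 to 58.8 and 32.2 to 63.3 CPM. Those of blood stood at 3.64 to 7.63 and 6.83 to 15.7 CPM, of muscle at 8.52 to 12 and 8.57 to 9.24 CPM, and of liver at 0.624 to 1.23 and 0.607 to 0.899 CPM. Their part in the results below was not tested. PRMT1 library 1 stood apart in several RNA classes. Its snoRNA class took 0.208% of its reads, where the other 5 libraries ran from 0.378% to 0.474%, its rRNA class 1.70% against 2.37% to 4.17%, and the class of other Rfam RNAs 0.784% against 1.65% to 4.09%. Exon fragments without a gene name took 6.04%, 5.43% and 6.73% of the PRMT1 libraries and 4.87%, 2.60% and 5.21% of the controls. Control library 2 stood apart as well. Known miRNAs took 65.5% of its reads, where the other libraries ran from 46.2% to 60.0%. Entries without a feature name took 23.33% against 34.26% to 40.36%, and its TMM factor was 0.749 against 1.042 to 1.085. What set either library apart was not tested.

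H/ACA and Cajal body RNAs were a small share of every library. The 87 families held 8950, 7156 and 7643 counts in control libraries 1 to 3, and 3906, 8440 and 5555 in PRMT1 libraries 1 to 3. As a share of all counts this was 366, 285 and 318 per 1000000 counts (ppm) in the control group and 162, 327 and 232 ppm in PRMT1 libraries. PRMT1 library 2 lay inside the control range and the other two PRMT1 libraries lay under it, so that the groups overlapped. The means were 323 ± 40.4 and 241 ± 82.8 ppm (SD, n = 3 each, exact permutation p = 0.3, adjusted p = 0.5 over 4 measures, two-sided). With 3 libraries against 3, no p under 0.1 was possible. Counting error was far smaller than these gaps: the 95% Wilson intervals were 157 to 168 ppm in PRMT1 library 1 and 358 to 373 in control library 1. Without PRMT1 library 1 the difference in share went from -0.00825 to -0.00434 percent of all counts (exact permutation p = 0.5). Without PRMT1 library 2 it was -0.0126 (exact permutation p = 0.1, the smallest p of that design). Taken of all counts but known miRNAs, the difference was -0.0232 percent (exact permutation p = 0.1, the smallest possible). Taken of known miRNA counts, it was -0.0127 percent (exact permutation p = 0.6). In a bulk library, fewer cells with an RNA and less RNA per cell cannot be told apart.

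Within the snoRNA class, the 87 families held 8.35%, 7.55% and 7.80% of the counts in the control group and 7.79%, 6.90% and 5.8% in PRMT1 libraries. PRMT1 library 1 lay above control library 2, so the groups overlapped, and the other two PRMT1 libraries lay under every control. The means were 7.90 ± 0.406% and 6.83 ± 0.999% (SD, n = 3 each, exact permutation p = 0.2, adjusted p = 0.5). PRMT1 library 1, lowest by share of all counts, lay within the control range here, and its SNORD count was low too: 42957, where the others had 81724 to 108177. Without that library the difference went from -1.07 to -1.55 percentage points (exact permutation p = 0.1, the smallest p of that design). Without control library 2 it was -1.24 percentage points (exact permutation p = 0.2).

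**Figure D1:**
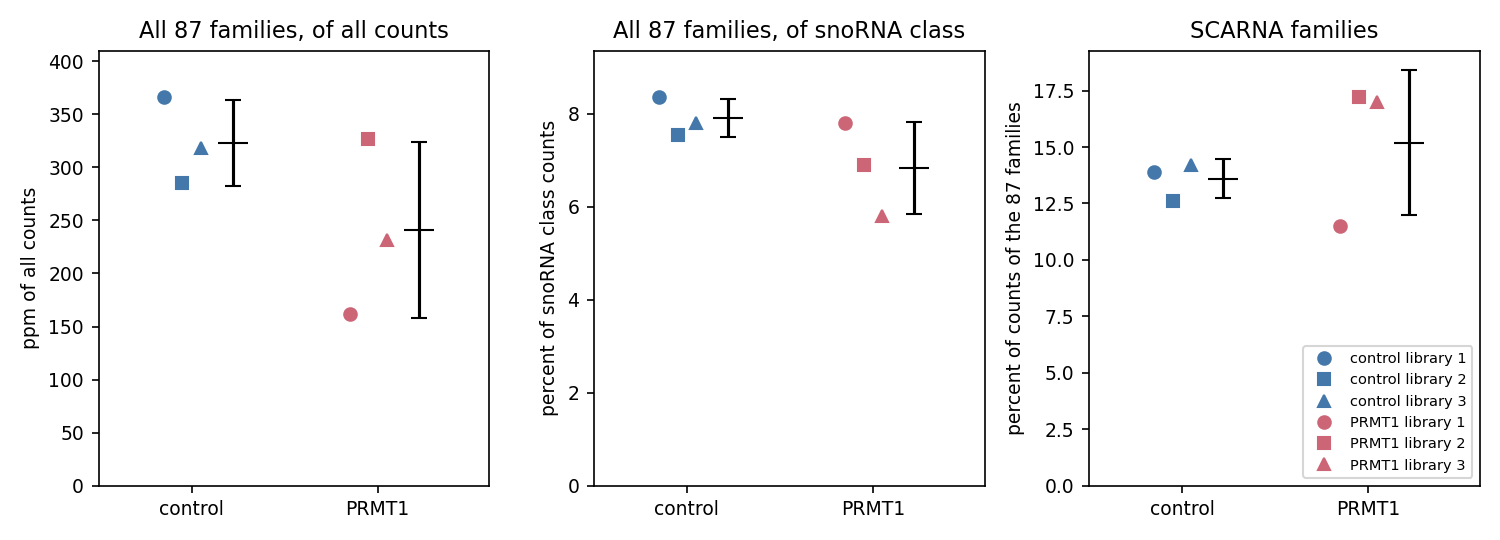
Shares of counts in each library: all 87 families ppm of all counts (left), all 87 as percent of the snoRNA class (middle), and SCARNA as percent of the counts of the 87 families (right). Points are libraries, black bars the group mean ± SD (n = 3), and the groups overlap in all 3 panels, with PRMT1 library 1 lowest at 162 ppm on the left.

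A few families carried most of the counts. SNORA73 alone held 21%, 28.9% and 25.7% of the families' counts in the control group and 30.7%, 23.4% and 19.5% in PRMT1 libraries, and the 3 highest families together held 39.9% to 48.4%. The 10 highest held 58.0% to 65.2%. At least 10 counts were reached by 63, 61 and 62 families in the control group and by 45, 66 and 58 families in PRMT1 libraries. Families with any read numbered 81, 81 and 86 in the control group and 80, 85 and 78 in PRMT1 libraries (exact permutation p = 0.5, adjusted p = 0.5). Per 100 bases of mean GENCODE gene length, SNORA73 had the highest mean level at 52.9 CPM, followed by SNORA74 at 23.3, SCARNA6 at 13.7, SNORA71 at 13.3 and SNORA70 at 10.2. SNORA73 stood above SNORA74, and SNORA74 above SCARNA6, in 6 of 6 libraries. From SCARNA6 down to the twelfth family in that order, each stood above its next neighbour in only 3 or 4 of 6 libraries, and the spread between libraries covered the gaps between neighbours.

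No family passed the test between PRMT1 and control. All named entries were tested together with the quasi-likelihood test of edgeR, in which 1712 entries, 62 of them from these families, had enough counts. Of the 62, 0 had an adjusted p under 0.05, where 0% of all tested entries did, and 1.0 was the smallest adjusted p. Before adjustment, p under 0.05 was reached by 2 families lower in PRMT1 libraries, SNORA36 and SNORA44, and by 0 higher, beside 1.64% lower and 1.87% higher among all entries. DESeq2 called 10 entries of the whole table and 0 of these families, and limma-voom called 0 of these families. Values of the groups did not overlap for 6 families lower in PRMT1 libraries and for 3 higher, beside 4.73% lower and 3.56% higher among all entries. Non-overlap here and below is of levels after TMM scaling, and the factor of 0.749 raises the levels of control library 2. It was not counted without that scaling. The median SE of a family's log2 fold change was 0.497, against 0.47 for all entries, so the differences below are given as values, not as changes.

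The signs of the differences were uneven. Of the 62 tested families, 53 had a log2 fold change under 0 and the median was -0.42. Over all 1712 entries 49.8% were under 0 with a median of 0.00, and over 91 tested SNORD families 47 were under 0 with a median of -0.02. PRMT1 library 1 moved with this leaning: 45 of 62 families (72.6%) had their lowest value of the 6 in PRMT1 library 1 and 0 had their highest there. That library was lowest for 63.7% of SNORD families, 22.5% of all entries and 6.13% of known miRNAs. Without it, 40 of 65 families were under 0 and the median was -0.10. Without PRMT1 library 2, 59 of 63 were under 0 and the median was -0.66. Scaled on snoRNA entries alone, which sets the class to a common level, 41 of 63 were under 0 with a median of -0.19. Scaled by library total alone, 46 of 62 were under 0 with a median of -0.27 while the median of all entries moved to 0.15.

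**Figure D2:**
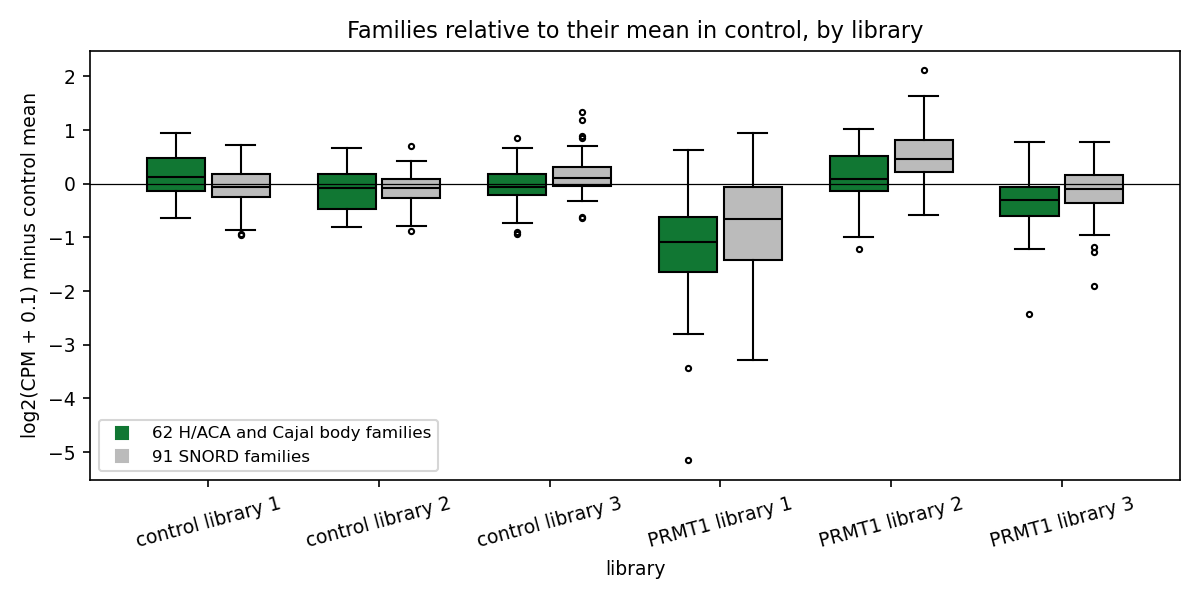
Distribution, per library, of log2(CPM + 0.1) minus the mean of the 3 control libraries, for 62 H/ACA and Cajal body families (green) and 91 SNORD families (grey). Boxes span the quartiles with the median as a line, whiskers reach 1.5 times the box, and circles lie beyond. The green median stands at -1.09 in PRMT1 library 1, 0.08 in PRMT1 library 2 and -0.30 in PRMT1 library 3.

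Relative to the control mean, the median family stood at -1.09 (log2) in PRMT1 library 1, with 57 of 62 families under 0. In PRMT1 library 2 it stood at 0.08 and in library 3 at -0.30. The SNORD families followed the same order of libraries from a different base, with medians of -0.66, 0.46 and -0.09, so that H/ACA and Cajal body families had the lower median of both classes in each PRMT1 library. That difference between classes was tested only as the share of the snoRNA class above. Spread within the group was also larger: the median coefficient of variation was 28.3% in the control group and 47.2% in PRMT1 libraries, and 50 of 62 families varied more among the PRMT1 libraries. The level in PRMT1 library 1, as a percentage of the mean of PRMT1 libraries 2 and 3, had a median of 46.7% over the 62 families and of 56.4% over the SNORD families. It was under 100% for 59 of the 62.

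Families differed widely in how low they stood in that library. Chosen after its values were seen, SNORA3/SNORA45 had 57, 109 and 101 counts in the control group and 1, 139 and 55 in PRMT1 libraries, a level of 1.02% of the other PRMT1 libraries. SNORA27 had 18, 6 and 16 counts in the control group and 1, 22 and 7 in PRMT1 libraries. At the other end, SNORA7 had 119, 111 and 127 counts in the control group and 95, 120 and 21 in PRMT1 libraries, so its low library was PRMT1 library 3. SNORA22 had 20, 28 and 22 counts in the control group and 23, 26 and 16 in PRMT1 libraries and its PRMT1 library 1 lay between the others of its group.

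SNORA73, also called E1 or U17, is known for its part in cleavage of the ribosomal RNA precursor. Its counts were 1883, 2069 and 1961 in the control group and 1198, 1972 and 1082 in PRMT1 libraries. PRMT1 libraries 1 and 3 lay under every control, and PRMT1 library 2, at 118 CPM, equalled control library 1 at 3 digits. The mean level was 129.5 ± 12.96 CPM in the control group and 87.3 ± 26.8 CPM in PRMT1 libraries (SD, n = 3 each). The log2 fold change was -0.57 (SE 0.29, edgeR unadjusted p = 0.0944, adjusted p = 1.0), and -0.45 without PRMT1 library 1. Under scaling on snoRNA entries alone it was -0.29.

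Among the other 68 SNORA families, which guide pseudouridylation or have no known target, 52 were tested, 6 above 0 and 46 below, with a median log2 fold change of -0.43. SNORA74, also called U19, had 1008, 704 and 723 counts in the control group and 436, 626 and 615 in PRMT1 libraries. After TMM scaling its levels did not overlap between groups. They were 52.9 ± 8.92 CPM in the control group and 34.8 ± 7.31 CPM in PRMT1 libraries (log2 fold change -0.61, SE 0.28, edgeR adjusted p = 1.0). Before that scaling, control library 2 held 704 of 19.24 M named counts and PRMT1 library 3 held 615 of 14.44 M, the higher share. SNORA71, a family of 5 genes, had 461, 436 and 313 counts in the control group and 178, 352 and 266 in PRMT1 libraries, and PRMT1 library 2 overlapped the lowest control. SNORA66, printed above, had 375, 175 and 209 counts in the control group and 67, 165 and 182 in PRMT1 libraries. Every PRMT1 library stood under every control in TMM-scaled CPM, and the log2 fold change was -0.93 (SE 0.49). Without control library 1 it was -0.50.

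SNORA70 had the largest coefficient of variation among PRMT1 libraries, 93.4%, of the 12 families of highest level. Its counts were 228, 208 and 319 in the control group and 54, 383 and 110 in PRMT1 libraries, so the highest and the lowest value of all 6 were both in the PRMT1 group. The log2 fold change was -0.56 (SE 0.69), and it was -1.64 when PRMT1 library 2 was left out and -0.12 when PRMT1 library 1 was. The values without control library 3 (-0.27) and PRMT1 library 3 (-0.21) also moved by over 1.5 times. SNORA63, also called E3, had 149, 175 and 157 counts in the control group and 87, 151 and 132 in PRMT1 libraries. The levels, 10.6 ± 1.44 and 7.66 ± 2.07 CPM, did not overlap between groups, but the gap between control library 1 at 9.34 CPM and PRMT1 library 2 at 9.05 CPM was smaller than the spread within either group. SNORA21 (log2 fold change -0.41), SNORA48 (-0.46) and SNORA14 (-0.34) overlapped between groups. SNORA7, whose PRMT1 levels also stood under every control, had a log2 fold change of -0.70 (SE 0.58).

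**Figure D3:**
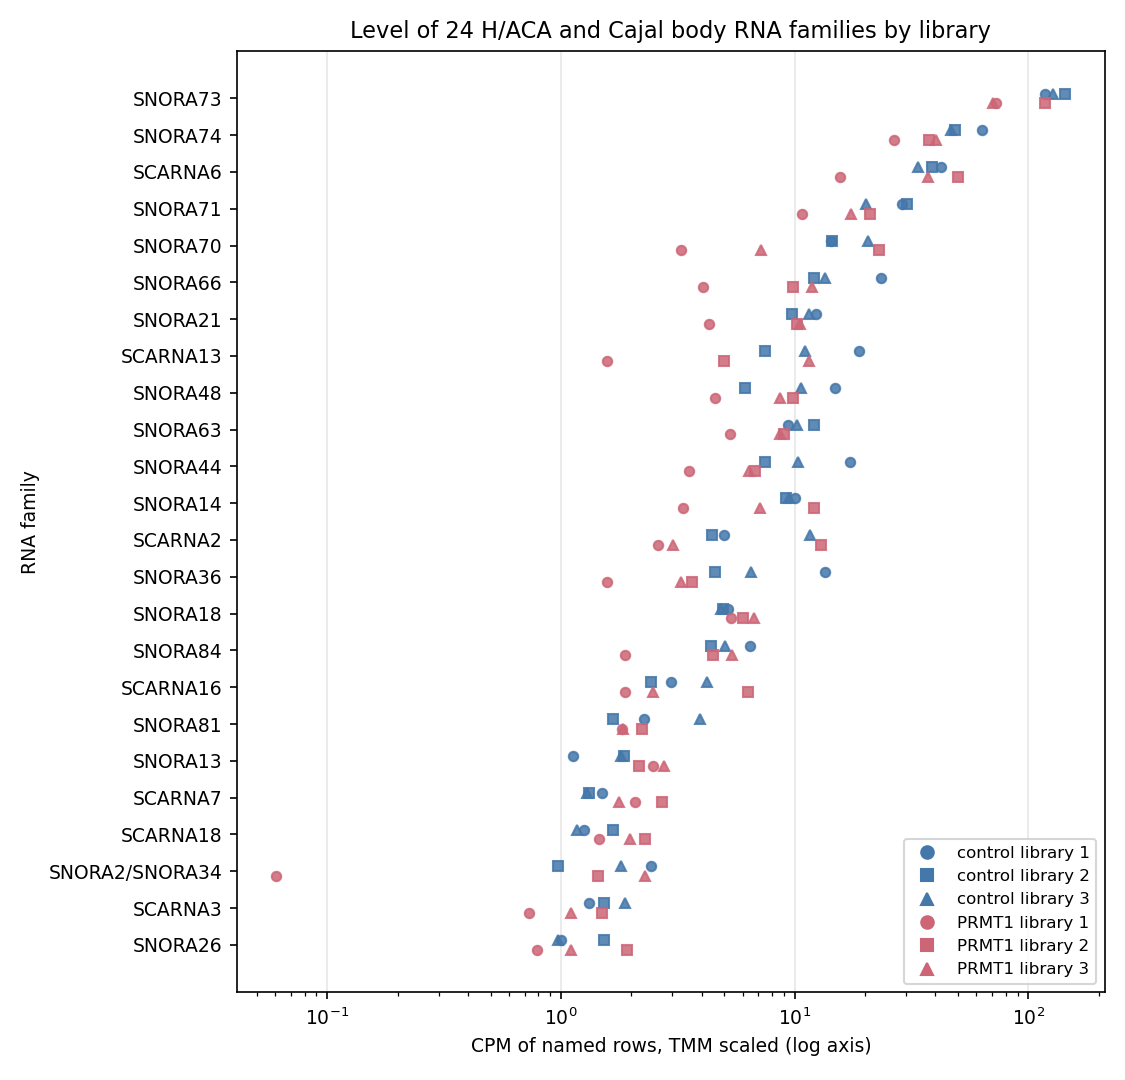
Level of the 24 named families in each of the 6 libraries, in CPM on a log axis, with control libraries in blue and PRMT1 libraries in red and the marker shape giving the library number. The red circles of PRMT1 library 1 are leftmost for most families, as far as 0.0607 CPM for SNORA2/SNORA34, while SNORA18, SNORA13 and SCARNA7 have all 3 red points to the right of the blue ones.

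The lowest unadjusted p-values belonged to SNORA36 and SNORA44. SNORA44 had 275, 108 and 159 counts in the control group and 58, 113 and 97 in PRMT1 libraries, and its levels did not overlap, at 11.7 ± 5.02 and 5.55 ± 1.77 CPM. Its log2 fold change was -1.07 (SE 0.43, edgeR unadjusted p = 0.0451, adjusted p = 1.0). Control library 1 was the highest, and the log2 fold change was -0.61 without it. No ACA was found in the final 10 bases of SNORA44, whereas 122 of 133 SNORA genes (91.7%) had it there. Its gene (chr1:28580381-28580512, minus strand) overlaps an exon of SNHG12 and is shown with ANANNA in capitals.
SNORA44: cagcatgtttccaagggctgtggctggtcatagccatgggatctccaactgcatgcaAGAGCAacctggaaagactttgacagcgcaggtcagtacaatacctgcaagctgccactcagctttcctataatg

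SNORA36 is a family with annotated miRNAs inside its genes. It had 216, 66 and 101 counts in the control group and 26, 61 and 50 in PRMT1 libraries, and PRMT1 library 2 at 3.65 CPM lay just under control library 2 at 4.58 CPM. The mean level was 8.22 ± 4.71 CPM in the control group and 2.84 ± 1.11 CPM in PRMT1 libraries. The log2 fold change of -1.53 (SE 0.54, edgeR unadjusted p = 0.0269, adjusted p = 1.0) was the lowest among the 62 families, and leaving out control library 1 gave -0.90 and leaving out PRMT1 library 1 gave -1.24. The family has 3 genes. SNORA36A (chrX:154768528-154768659, plus strand) lies in DKC1, the gene of dyskerin, and SNORA36B (chr1:220200546-220200676, minus strand) in an intron of RAB3GAP2. They share 87.9% of aligned positions and are printed because the capitals mark mature miRNAs of RefSeq (GRCh38.p14) found whole in them: miR-664b-5p and miR-664b-3p in SNORA36A, miR-664a-5p and miR-664a-3p in SNORA36B.
SNORA36A: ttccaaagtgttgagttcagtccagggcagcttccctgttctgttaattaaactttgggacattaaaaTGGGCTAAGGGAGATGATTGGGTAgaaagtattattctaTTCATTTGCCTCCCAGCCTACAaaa
SNORA36B: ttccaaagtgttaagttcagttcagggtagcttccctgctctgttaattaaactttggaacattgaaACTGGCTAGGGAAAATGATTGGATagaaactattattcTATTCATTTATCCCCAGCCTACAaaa

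SNORA36C, in an intron of AAK1, also holds miR-664b-3p. The miRNA entries that share these bases are counted apart from the family. The 3p arm of miR-664a had 252, 312 and 214 counts in the control group and 220, 261 and 190 in PRMT1 libraries (log2 fold change -0.31, SE 0.28). The 3p arm of miR-664b had 43, 45 and 40 counts in the control group and 52, 46 and 37 in PRMT1 libraries (log2 fold change -0.01, SE 0.29). Their values overlapped between groups. Summed over the 4 arms, miR-664 counts per 100 SNORA36 counts were 143, 561 and 264 in the control group and 1100, 523 and 466 in PRMT1 libraries. The difference between the family and its miRNAs was not tested, and how a read that fits both entries was assigned is not given in the sources used here.

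Other members hold a known miRNA as well. SCARNA16, in an intron of SEC14L1 (chr17:77089307-77089493, plus strand) and also inside SNHG20, holds both arms of miR-6516, in capitals here.
SCARNA16: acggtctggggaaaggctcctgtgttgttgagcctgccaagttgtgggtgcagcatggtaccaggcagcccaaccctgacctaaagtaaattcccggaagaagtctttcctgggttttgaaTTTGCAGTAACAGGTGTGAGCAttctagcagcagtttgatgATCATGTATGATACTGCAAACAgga
SCARNA16 had 47, 35 and 65 counts in the control group and 31, 105 and 38 in PRMT1 libraries, so that PRMT1 libraries held both the highest and the lowest level (log2 fold change 0.15, SE 0.53). The 5p arm of miR-6516 had 4, 4 and 2 counts in the control group and 8, 11 and 11 in PRMT1 libraries, too few for the test. These values did not overlap between groups. SCARNA3 had 21, 22 and 29 counts in the control group and 12, 25 and 17 in PRMT1 libraries (log2 fold change -0.50), and miR-1843 within it had 65, 58 and 49 counts in the control group and 69, 49 and 61 in PRMT1 libraries (-0.02). SNORA81, which holds miR-1248, had 36, 24 and 61 counts in the control group and 30, 37 and 28 in PRMT1 libraries (-0.42). SNORA84, which holds miR-3651, had 103, 63 and 78 counts in the control group and 31, 75 and 82 in PRMT1 libraries (-0.43). SNORA2/SNORA34, which includes SNORA2C with miR-1291, had 39, 14 and 28 counts in the control group and 1, 24 and 35 in PRMT1 libraries, and its log2 fold change of -0.47 was 0.10 without PRMT1 library 1.

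A few SNORA families stood higher in PRMT1 libraries. SNORA18 had 83, 71 and 75 counts in the control group and 88, 100 and 102 in PRMT1 libraries, with 5.0 ± 0.183 and 6.01 ± 0.670 CPM and no overlap (log2 fold change 0.27, SE 0.25). SNORA13 had 18, 27 and 28 counts in the control group and 41, 36 and 42 in PRMT1 libraries, also without overlap (log2 fold change 0.62, SE 0.35, edgeR adjusted p = 1.0). Both kept a positive value in every setting tried, from 0.21 to 0.60 for SNORA18 and from 0.48 to 0.98 for SNORA13. SNORA26 (log2 fold change 0.13, SE 0.51) overlapped between groups.

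**Figure D4:**
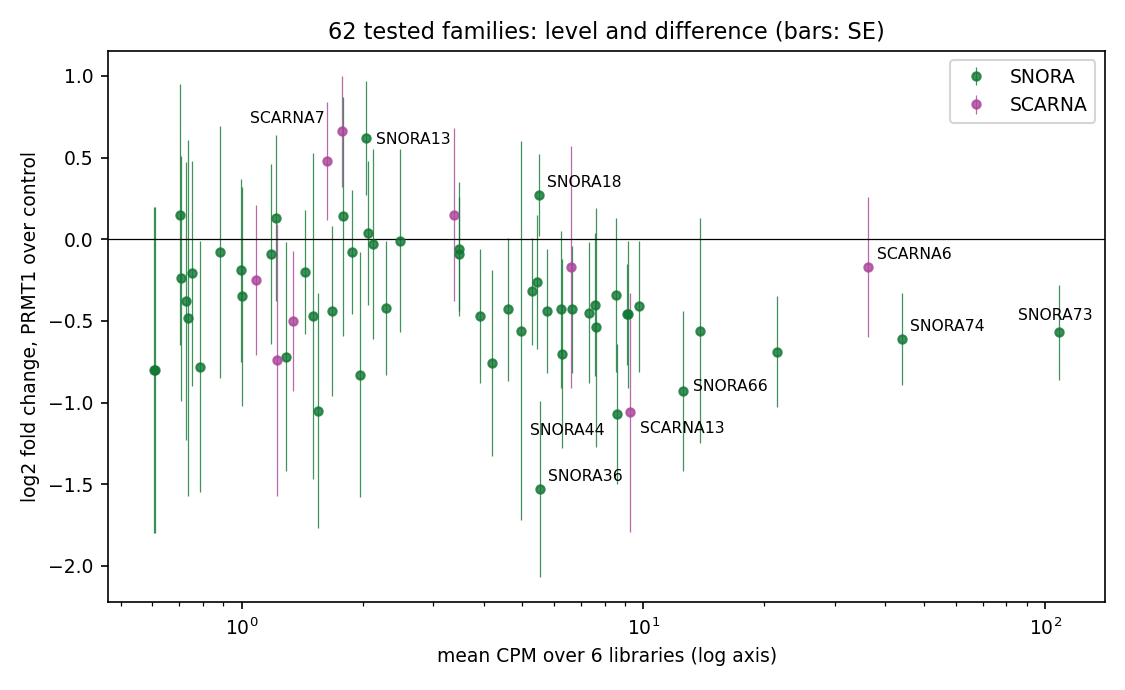
Log2 fold change of PRMT1 over control against mean CPM over 6 libraries (log axis) for the 62 tested families, SNORA in green and SCARNA in purple, with bars of 1 SE. Most points lie under 0, from -1.53 for SNORA36 to 0.66 for SCARNA7, and their bars are wide.

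SCARNA families made up 13.9%, 12.6% and 14.2% of the 87 families' counts in the control group and 11.5%, 17.2% and 17% in PRMT1 libraries. PRMT1 library 1 was lowest and the other two PRMT1 libraries were highest. The means were 13.6 ± 0.876% and 15.2 ± 3.19% (SD, n = 3 each, exact permutation p = 0.4, adjusted p = 0.5). Without PRMT1 library 1 the difference went from 1.65 to 3.49 percentage points (exact permutation p = 0.1, the smallest p of that design). Of 18 SCARNA families 9 were tested.

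SCARNA6, also called U88, is of the mixed kind that joins H/ACA and C/D elements. Of the 18 SCARNA families it had the highest mean level, 36.3 CPM. Its gene (chr2:233288676-233288940, plus strand) lies in an intron of ATG16L1. It is shown with every TGAG in capitals. Those letters are the motif bound by WDR79, also called TCAB1, which brings such RNAs to the Cajal body. For H/ACA kinds the motif sits in a loop and is called the CAB box.
SCARNA6: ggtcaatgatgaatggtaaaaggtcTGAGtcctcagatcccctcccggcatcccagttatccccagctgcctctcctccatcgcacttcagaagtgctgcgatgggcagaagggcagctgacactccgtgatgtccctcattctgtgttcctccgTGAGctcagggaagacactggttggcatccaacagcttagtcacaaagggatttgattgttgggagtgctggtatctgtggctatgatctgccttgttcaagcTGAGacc
Letters TGAG were found on the RNA strand in 12 of 19 SCARNA genes (63.2%). They were also found in 58 of 133 SNORA (43.6%) and 239 of 275 SNORD genes (86.9%). They can overlap box D, CTGA, and where they did so was not tested. In SCARNA6 the first and last TGAG follow a C and so overlap the letters CTGA. A match is a description, not a site. SCARNA6 had 677, 560 and 524 counts in the control group and 258, 831 and 566 in PRMT1 libraries. The lowest and the highest of the 6 were both PRMT1 libraries, and the log2 fold change of -0.17 (SE 0.43) became 0.18 without PRMT1 library 1 and 0.00 when scaled on snoRNA entries alone.

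Of the H/ACA kind of SCARNA, 6 of 13 families were tested, 2 above 0 and 4 below. SCARNA13, also called U93, a guide for small nuclear RNAs, had 300, 108 and 172 counts in the control group and 26, 83 and 175 in PRMT1 libraries. PRMT1 library 3, at 11.5 CPM, overlapped the controls, and the log2 fold change was -1.06 (SE 0.73). Leaving out PRMT1 library 1 gave -0.60, leaving out control library 1 gave -0.58 and leaving out PRMT1 library 3 gave -1.83. SCARNA18 had 20, 24 and 18 counts in the control group and 24, 38 and 30 in PRMT1 libraries (log2 fold change 0.48, SE 0.36). SCARNA4, chosen after its values were seen, with 18, 24 and 28 counts in the control group and 3, 33 and 9 in PRMT1 libraries, showed again the low PRMT1 library 1.

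Of the box C/D kind of SCARNA, which guides ribose methylation of small nuclear RNAs, SCARNA2 and SCARNA7 were tested. SCARNA7, also called U90, had 24, 19 and 20 counts in the control group and 34, 45 and 27 in PRMT1 libraries. Its levels of 1.37 ± 0.115 and 2.18 ± 0.473 CPM did not overlap, and its log2 fold change of 0.66 (SE 0.34, edgeR unadjusted p = 0.0933, adjusted p = 1.0) was the highest among the 62 families. SCARNA2 had 80, 64 and 179 counts in the control group and 43, 217 and 46 in PRMT1 libraries. A library of high value stood in each group, and the log2 fold change of -0.17 (SE 0.74) changed sign when control library 3 (0.49), PRMT1 library 1 (0.19) or PRMT1 library 3 (0.26) was left out.

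Families with genes in the same host gene had differences of either sign, and none passed the test. Hosts with genes of at least 3 families were chosen after values were seen. TAF1D on chromosome 11 hosts genes of 6 families. Of these, SNORA18 had a log2 fold change of 0.27, SNORA32 of -0.08, SNORA1 of -0.19 and SNORA25 of -0.72 (SE 0.25, 0.38, 0.56 and 0.70), while SNORA8 and SNORA40 had too few counts. Mean levels ran from 0.217 CPM per 100 bases for SNORA40 to 4.17 for SNORA18. SNHG12 on chromosome 1 hosts SNORA44 (-1.07), SNORA61 (-0.78, SE 0.77) and a copy of SNORA16B/SNORA16A (0.04, SE 0.44). SNORA1, SNORA25, SNORA40 and SNORA16B/SNORA16A also have genes elsewhere, so their counts are not of the host alone. Differences between families of a host were not tested.

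**Figure D5:**
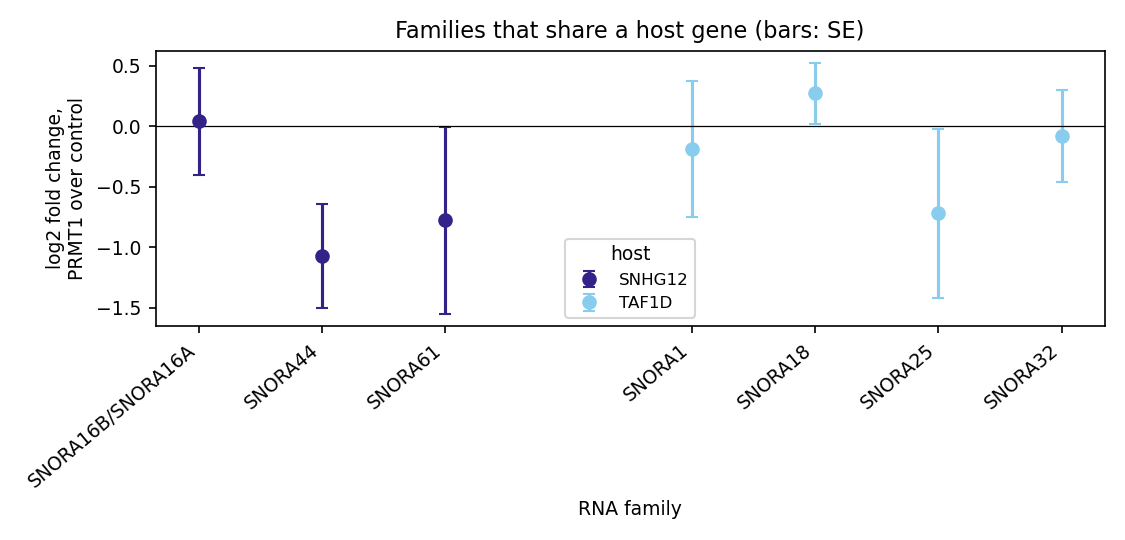
Log2 fold change of PRMT1 over control for tested families with a gene in SNHG12 or in TAF1D, with bars of 1 SE. Within SNHG12 the values run from -1.07 to 0.04 and within TAF1D from -0.72 to 0.27, with overlapping bars for most neighbours.

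The remaining 25 families, 16 SNORA and 9 SCARNA, did not pass the filter on low counts. Their total over 6 libraries ran from 1 count to 63, and no library held more than 19 counts of any of them. SNORA51 and SCARNA11 were the highest of these, with 6, 19 and 14 counts in the control group and 9, 10 and 5 in PRMT1 libraries for SNORA51, and 14, 8 and 9 against 1, 16 and 8 for SCARNA11. SNORA47 had 6, 6 and 10 counts in the control group and 3, 5 and 2 in PRMT1 libraries, levels that did not overlap. SNORA20 had 1 count, in control library 3, and SCARNA24 had 1 count in each of control libraries 2 and 3. Fitted without the filter, 0 of all 87 families were called, and those with an unadjusted p under 0.05 were again SNORA36 and SNORA44, 2 in all.

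RNAs that these guides act on, and other RNAs set beside them, also gave 0 calls. Of 9 spliceosomal small nuclear RNA entries 6 were tested, 2 above 0 and 4 below, with a median log2 fold change of -0.08. U2 spliceosomal RNA, a target of several SCARNA, had 1157, 850 and 1057 counts in the control group and 943, 886 and 1070 in PRMT1 libraries. Of the ribosomal RNA entries, 5S had a log2 fold change of 0.58 (SE 1.26), 5.8S of -0.63 (SE 0.45), the eukaryotic small subunit of 0.16 (SE 0.25) and the eukaryotic large subunit of -0.03 (SE 0.46). The other 6 of 10 name bacterial, archaeal or microsporidian RNAs or a pseudoknot of the large subunit. Over all 10, 8 were above 0 and 2 below, with a median of 0.18. The entry named archaeal small subunit had the largest value, 1.28 (SE 0.35, edgeR unadjusted p = 0.00996). Its levels did not overlap between groups, and it was not called after adjustment. Telomerase RNA, which ends in an H/ACA domain and carries a CAB box, had 3, 4 and 0 counts in the control group and 0, 5 and 3 in PRMT1 libraries, at or near the limit that a count of 0 allows. The box C/D RNAs U3, U8 and U13 of ribosomal RNA processing were all below 0, with a median of -0.20. Of 5 entries of RNase P and RNase MRP 3 were tested, all below 0, with a median of -0.11. Entries under older names that the selection does not reach numbered 7, of which 5 were tested with a median of -0.21. They include ACA64, U2-19, U85 and U89. The highest was U2-19, with 1024, 811 and 1144 counts in the control group and 433, 1119 and 1141 in PRMT1 libraries. Its mean level of 60.4 CPM stood above SNORA74 at 43.9 CPM and SCARNA6 at 36.3 CPM. U85, of the mixed kind, had 168, 85 and 119 counts in the control group and 82, 109 and 108 in PRMT1 libraries.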

How the data were processed

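Small RNA was sequenced on the BGI-500 and filtered by BGI, per the series' design text. Counts were deposited per feature and not normalised. The deposited TPM column carries no length term: it matched each count divided by its library's total, in CPM, to within 0.005, and served for that check only. HISAT, Bowtie2, RSEM and GRCh37.p13 stand in the submitters' processing notes; their roles, and any use of strand, are not given in the sources used here. Per the labels, the RNA went through poly(A) selection or depletion of ribosomal RNA, although the tables hold small RNA.

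An entry missing from a table was taken as 0. The 4 entries without a feature name (exon, intron, repeat, intergenic), 23.33% to 40.36% of counts, stayed out of library sizes and tests. All 4208 named entries entered 1 fit with edgeR 4.0.16 (R 4.3.3): filterByExpr, TMM, robust quasi-likelihood test, no block, Benjamini-Hochberg at 0.05. The fit was tested on 5 simulated sets with 200 changed entries each. It recovered 1.87% of 2-fold, 31.7% of 4-fold and 87.7% of 16-fold changes, and on average 4.32% of its calls were false. A lack of calls therefore does not show a lack of 2-fold changes. SE is the log2 fold change over the root of F. DESeq2 1.42.0 and limma 3.58.1 were alternatives. Two-sided exact permutation tests compared the shares. No libraries were copies of each other: counts of the families gave a chi-square of at least 4.32 per degree of freedom for all pairs.

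Members, lists and rules were chosen with earlier results of these data known. Families named are the 6 of smallest p per direction (none passed), the 12 of highest mean CPM, SCARNA at or above the median level, SNORA73 and those holding a known miRNA, 24 in all. Any other family in the text was picked with its values in view.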

Additional observations from a re-analysis of the deposited data

How the results depend on the processing

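No family was called in any of the 17 other settings tried, and the median log2 fold change stayed under 0 in all of them. The median was -0.66 to -0.10 when a library was left out. Keeping the 4 unnamed entries, an alternative added after seeing the data, gave -0.47 with 54 of 62 families under 0, and taking the share of named entries, also added later, gave the same direction. Of the 24 named families, 7 had the opposite sign without some library. Their ranges were -0.52 to 0.18 for SCARNA6, -0.85 to 0.01 for SNORA14, -1.31 to 0.49 for SCARNA2, -0.54 to 0.49 for SCARNA16, -0.66 to 0.06 for SNORA81, -1.10 to 0.10 for SNORA2/SNORA34 and -0.27 to 0.38 for SNORA26. SCARNA6 stood at 0.00 on snoRNA entries alone, and SCARNA16 at -0.01 under limma-voom. The difference in families with a read ran from -3.67 to 0 when a library was left out, 0 being without control library 3. The cause was not tested. Whether replicate numbers in the labels pair the samples was not settled. Over all tested entries, deviations of same-numbered libraries correlated at 0.1343, 0.3011 and 0.0996, and those of different numbers at -0.2229 to 0.1508. Control library 1 correlated best with PRMT1 library 3 (0.1508). Over the tested families, same-numbered libraries correlated at -0.17, -0.086 and -0.177, and those of different numbers at -0.256 to 0.43. With a replicate block 0 families were called, the median was -0.49, 54 of 62 were under 0, SCARNA16 stood at -0.02, and the difference in share was -0.00825 percent of all counts (exact permutation p = 0.5). The 25 families under the count filter were fitted in the setting without a filter, where 0 of 87 were called.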
